A study of Mus musculus with 2 samples.

Results

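Chemokine receptors steer white blood cells from the marrow and blood into tissue, and 7 that direct leukocytes between marrow, blood, lymphoid tissue and liver are described here: Ccr2, Cx3cr1, Cxcr2, Cxcr4, Cxcr5, Cxcr6 and Ccr9. They were taken by symbol as a list, 7 of the 33696 genes in the matrices, and were followed across cell classes in 2 single-cell RNA libraries. The WT library comes from Alb-WT Bicd2fl/fl mice, which lack Cre, and the KO library from Alb-Cre Bicd2fl/fl mice, whose albumin-driven Cre is meant to delete Bicd2 in hepatocytes. Bicd2 encodes an adaptor of the dynein motor. Both genotypes carry the floxed alleles. Both were given intraperitoneal S-100, a liver extract emulsified with complete Freund's adjuvant, at 2.5 mg weekly for 3 weeks to model autoimmune hepatitis. Per the labels' protocol the cells were liver immune cells from a Percoll interface, while the sample titles call them peritoneal and a treatment tag reads HFD. The number of animals behind each library is not given in the labels.

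These receptors are G-protein-coupled and each answers few chemokines. Ccr2 reads Ccl2 and related ligands and lets classical monocytes leave the marrow, and Cx3cr1 binds the membrane-anchored ligand Cx3cl1 and marks patrolling monocytes and some effector lymphocytes. Cxcr2 binds neutrophil-attracting chemokines such as Cxcl1 and Cxcl2, while Cxcr4, through Cxcl12, retains neutrophils, B cells and progenitors in the marrow. Cxcr5 draws B cells into follicles along Cxcl13, Cxcr6 holds T cells, natural killer T cells and type 1 innate lymphoid cells in liver sinusoids where Cxcl16 is displayed, and Ccr9 reads Ccl25 and is known for gut and thymus homing and for plasmacytoid dendritic cells.

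With 1 library per genotype nothing here has a replicate check, no test across samples exists, and every interval, given in square brackets, is a 95% interval that covers counting error only. The WT library gave 17080 kept cells (median 2793 UMIs, or unique molecules counted) and the KO library 15619 (median 2003). Bicd2 itself had 1288 UMIs in kept WT cells and 560 in kept KO cells, 19.8 and 13.3 CPM (a gene's UMIs scaled to the same total of UMIs in every library and class). Hepatocyte-like WT cells held 0 Bicd2 UMIs of 103933, a count that permits 28.9 CPM, and KO ones held 3, so the deletion could not be checked. Of the barcodes, 177 occurred in both libraries, 70 of them among kept cells. Haemoglobin took 11.1% (WT) and 22.9% (KO) of kept UMIs. It was higher in KO in 10 of the 11 units compared, for example 3.81% and 18.3% in natural killer and type 1 innate lymphoid (NK-ILC1-like) cells. UMIs of the 13 neutrophil markers in B-like cells, which should not make them, summed to 4192 CPM in WT and 450.4 CPM in KO. The part of these 2 differences in the receptor values was not tested, beyond the values without haemoglobin given beside results that they change and in the closing section.

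Cells were grouped into classes named "-like" from marker genes, with all chemokines and chemokine receptors kept out of the clustering and the markers. In all, 10 classes and 1 unnamed dendritic cluster (cluster 14, which carries Cd209a and Fscn1) had at least 100 cells in each library and were compared. They ranged from 100 WT and 314 KO macrophage-like cells to 5913 WT and 4944 KO T-like cells. A receptor is called 2-fold higher or lower where the ratio of KO to WT CPM is at least 2 in either direction, the higher library has at least 20 UMIs and the interval of the ratio leaves out 1. To compare shares of cells in which a receptor was seen, each cell was thinned to 1000 UMIs and cells with fewer were left out. Median depths in WT and KO were 2159 and 1550 UMIs in B-like, 2151.5 and 1021 in neutrophil-like, 3456 and 2971 in erythroid-like, 2729 and 1809.5 in T-like and 3875.5 and 4480 in classical monocyte-like cells.

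**Figure D1:**
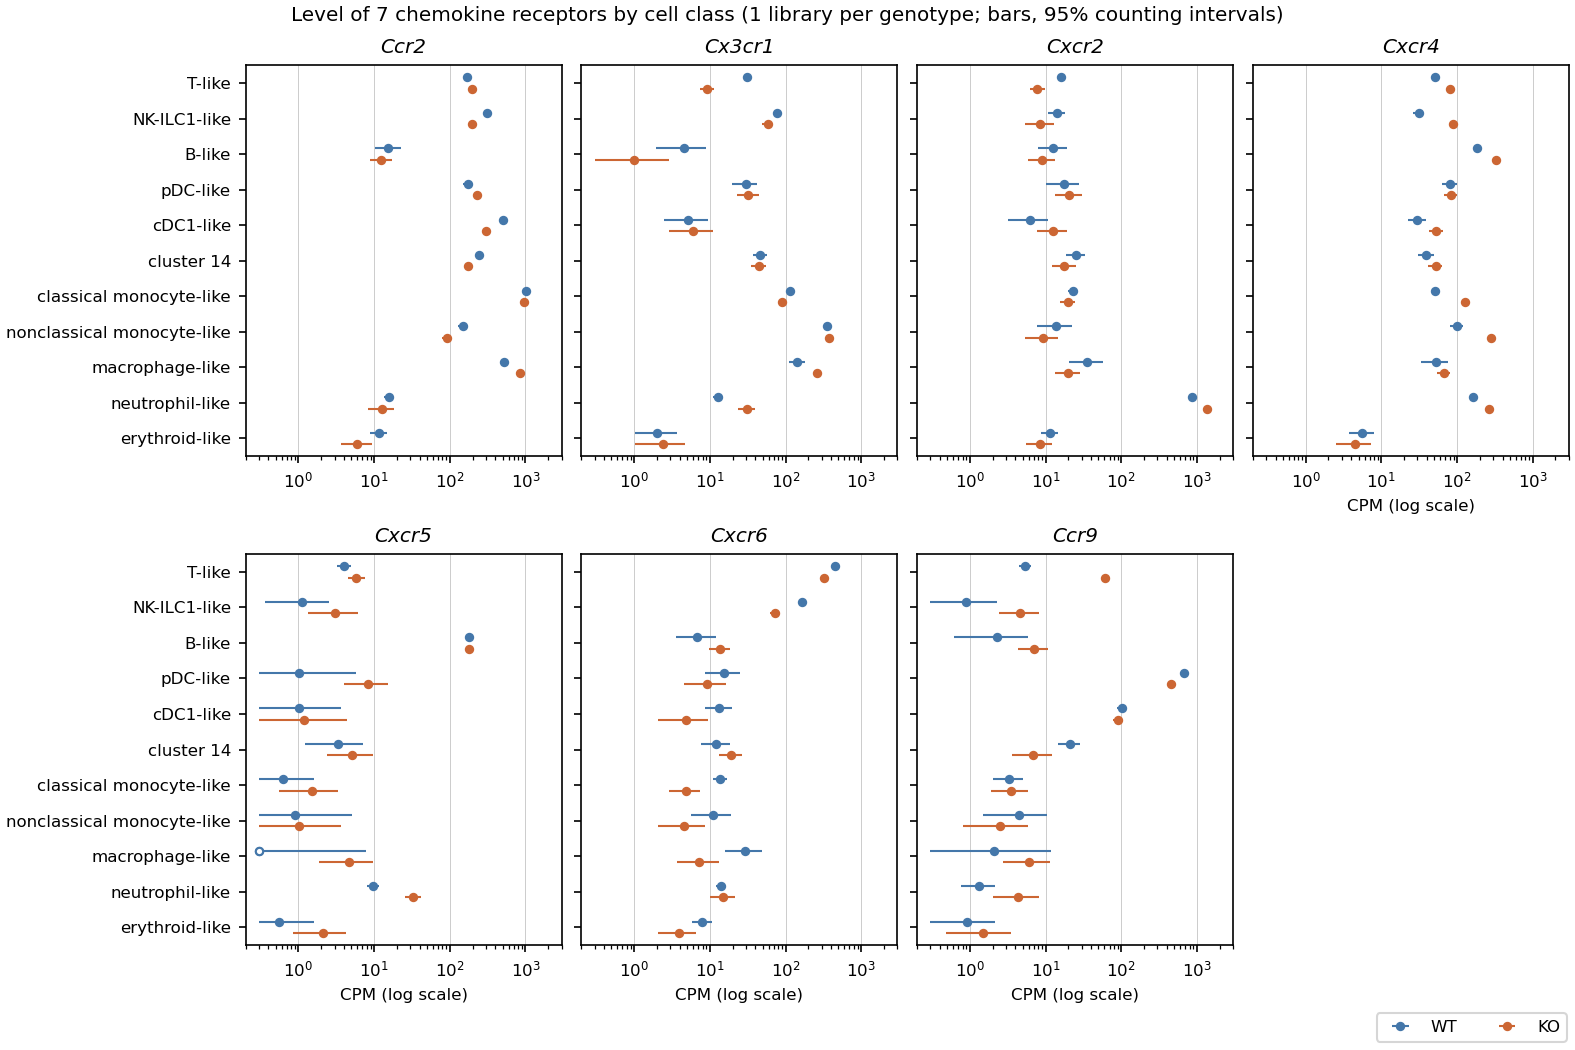
CPM of the 7 receptors (log scale, horizontal) in the 10 compared classes and cluster 14 (vertical), WT in blue and KO in orange, 1 library each; bars are 95% Poisson intervals and an open circle at the left edge stands for 0 UMIs. Cxcr2, Cxcr5 and Ccr9 each have 1 class far above the rest, Cxcr4 is spread over many classes, and its KO point lies to the right of the WT point in 10 of 11.

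Of the 7, Cxcr2 had the largest share of its UMIs in 1 class in both libraries. It stood at 870.1 (WT) and 1356 CPM (KO) in neutrophil-like cells, which held 89.6% (WT) and 71.9% (KO) of all Cxcr2 UMIs. The next levels among compared units were 35.4 CPM in WT macrophage-like and 20.7 CPM in KO pDC-like cells. Over all kept cells Cxcr2 was 192 (WT) and 92.7 CPM (KO), 2.07-fold lower in KO [1.99 to 2.14]. It was 1 of 3 receptors called over all kept cells, with Cxcr5 and Ccr9 higher, where 15.9% of 15481 tested genes were called, and its call was lost at a log2 ratio of -0.84 without haemoglobin genes in the total, or -0.97 with edgeR's TMM scaling. In such sums over all cells, fewer cells of a type and less RNA per cell cannot be told apart. Neutrophil-like cells made up 25.2% (WT) and 9.98% (KO) of the cells. Inside the class the order was the opposite, with a KO to WT ratio of 1.56 [1.49 to 1.62]. The class was made up differently in the 2 libraries: cluster 1, of mature neutrophils led by Csf3r and Stfa2l1, held 2220 of 4308 WT and 1344 of 1559 KO cells. Within cluster 1 Cxcr2 was 1831 (WT) and 1726 CPM (KO), a ratio of 0.943 [0.90 to 0.986], and within cluster 8, led by the granule genes Ltf and Ngp, it was 506 (WT) and 565 CPM (KO), a ratio of 1.12 [0.969 to 1.28]. Both ratios lay nearer to 1 than that of the whole class, which was 0.26 on the log2 scale with thinned cells against 0.64 unthinned. A finer clustering of the same cells set apart a neutrophil cluster led by Stfa2l1, with 1973 WT and 241 KO cells. Another, led by Nlrp12 and with Csf3r among its leading genes, held 266 WT and 1097 KO cells. The part of this make-up in the cluster 1 values, here and for other receptors below, was not tested. Thinning left 3841 of 4308 WT and 820 of 1559 KO neutrophil-like cells, since shallower ones were left out. Of these, 59.5% [58 to 61.1] (WT) and 69.6% [66.4 to 72.8] (KO) had a Cxcr2 UMI, against 0.828% and 0.813% of B-like cells. Without thinning, over all cells of the class, the order of the libraries turned. The shares were then 78% (WT) and 74.7% (KO) of neutrophil-like and 2.36% and 1.49% of B-like cells.

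Cxcr4 had at least 20 UMIs in all 11 units and was higher in KO in 10 of them. Among the compared units its highest levels were in B-like cells at 186 (WT) and 323 CPM (KO), neutrophil-like cells at 162 (WT) and 267 CPM (KO) and nonclassical monocyte-like cells at 99.4 (WT) and 283 CPM (KO). In WT the intervals of B-like (167 to 208 CPM) and neutrophil-like cells (155 to 169 CPM) overlapped, and in KO the intervals of B-like (303 to 345 CPM) and nonclassical monocyte-like cells (260.2 to 308 CPM) overlapped. The KO to WT ratio was 2.85 [2.32 to 3.53] in nonclassical monocyte-like, 2.84 [2.3 to 3.53] in NK-ILC1-like and 2.48 [2.15 to 2.85] in classical monocyte-like cells, and these 3 were called 2-fold higher, also under every alternative run for these classes. It was 1.78 [1.26 to 2.52] in cDC1-like, 1.74 [1.53 to 1.98] in B-like, 1.65 [1.5 to 1.81] in neutrophil-like and 1.56 [1.42 to 1.71] in T-like cells, so 7 of the 11 units had an interval above 1 and none had one below it. In pDC-like cells the levels were 79.6 (WT) and 83.4 CPM (KO), a ratio of 1.05 [0.772 to 1.43], and the order turned with thinned cells, at -0.18 on the log2 scale. The erythroid-like class, which should lack Cxcr4, was the only unit lower in KO, at 5.53 (WT) and 4.49 CPM (KO). After thinning, Cxcr4 was seen in 5.42% [4.18 to 6.9] (WT) and 14.7% [12.2 to 17.6] (KO) of classical monocyte-like cells and 10.9% [7.33 to 15.5] (WT) and 26.1% [22.8 to 29.7] (KO) of nonclassical ones, against 0.399% and 0.481% of erythroid-like cells. The unthinned shares were 19.6% and 38.9% of classical monocyte-like, 28.1% and 46.3% of nonclassical monocyte-like and 1.99% and 1.44% of erythroid-like cells. Classical monocyte-like cells had called 2 of their 5 receptors with 20 UMIs where 9.15% of 10213 tested genes were called, and nonclassical ones 1 of 3 where 9.05% of 7468 were. At the finer clustering 1 classical monocyte-like cluster, led by Cfb and Cxcl9, held 709 WT and 84 KO cells. Another, led by Vcan, held 590 WT and 710 KO cells. The alternative at that resolution joined both into 1 class. The part of this make-up in the receptor values of the classical monocyte-like class was not tested.

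Inside the classes the Cxcr4 difference was uneven. Within the NK-ILC1-like class, cluster 6, led by the natural killer genes Klra8, Gzma and Prf1, had 32.5 (WT) and 119.7 CPM (KO), a ratio of 3.69 [2.87 to 4.77], while cluster 13, led by Ncr1, Xcl1 and Gzmc, had 29.3 (WT) and 13.3 CPM (KO) from 53 and 10 UMIs and was 2.21-fold lower in KO [1.11 to 4.87]. The call in cluster 13 was lost without haemoglobin genes in the total, at -0.93 on the log2 scale, without cells over 10% haemoglobin, at -0.83, and with thinned cells, at -0.59. Cluster 6 had 2 of 5 receptors called, where 12.7% of tested genes were, and cluster 13 had 1 of 3, where 8.66% were. At the finer clustering a natural killer cluster with Cma1, Prf1 and Gzma among its leading genes held 242 WT and 697 KO cells. Another, with Klra8 and Klra4 among its leading genes, held 451 WT and 44 KO cells. The part of this make-up in the receptor values of cluster 6 was not tested. Among T-like cells, cluster 7, led by Cd8a and Cd8b1, had 49.3 (WT) and 136 CPM (KO), a ratio of 2.77 [2.2 to 3.49], and cluster 12, led by the naive T cell genes Lef1 and Tcf7, 33.3 (WT) and 97.3 CPM (KO), a ratio of 2.92 [1.8 to 4.96]. Cluster 0, led by the natural killer T cell genes Zbtb16 and Il4, had 44.8 (WT) and 56.1 CPM (KO), a ratio of 1.25 [0.973 to 1.63]. Neutrophil cluster 1 had a ratio of 1.8 [1.59 to 2.04] and cluster 8 one of 1.25 [0.989 to 1.57]. None of 6 receptors was called in cluster 1, where 8.77% of tested genes were, and none of 3 in cluster 8, where 3.64% were.

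**Figure D2:**
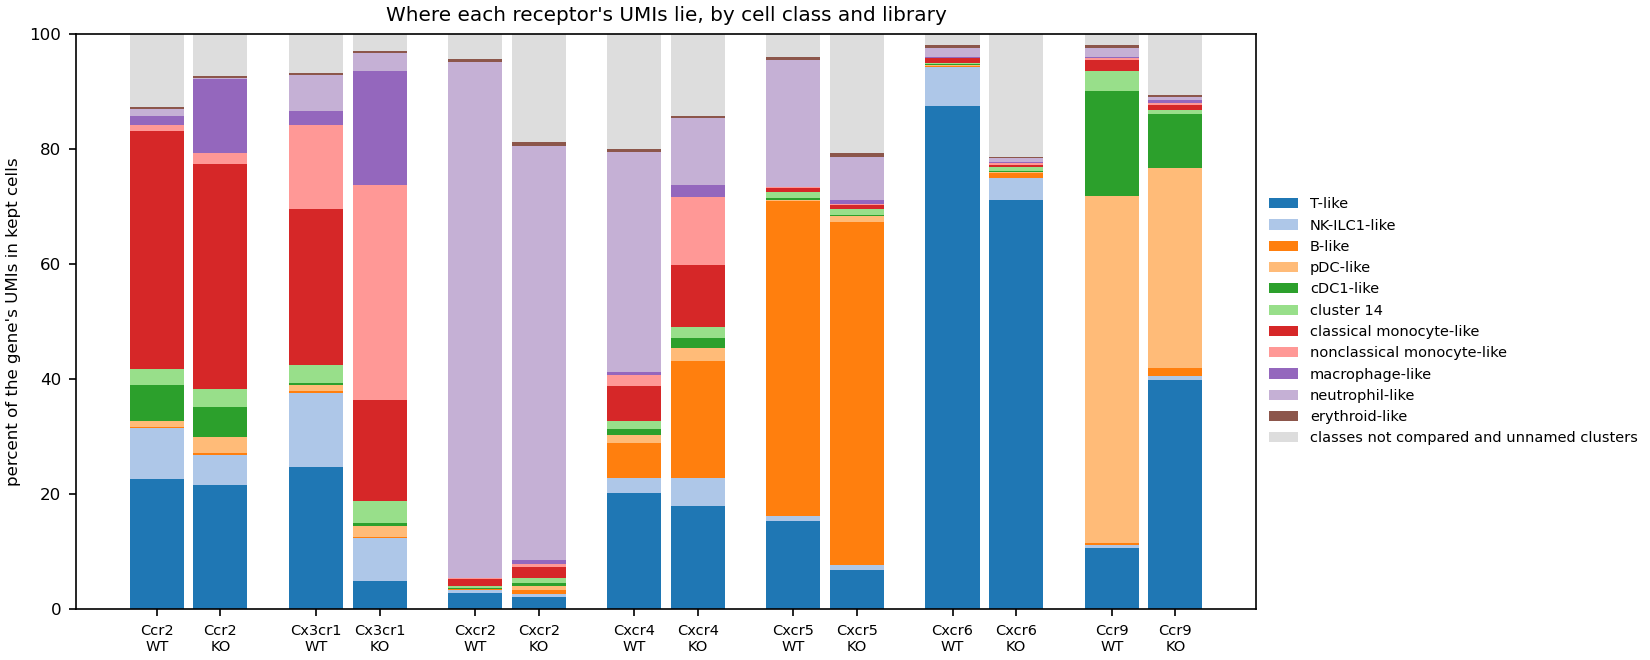
Percent of each receptor's UMIs in kept cells (vertical) that came from each class, for WT and KO; grey stands for classes with too few cells and for unnamed haemoglobin-high clusters. Neutrophil-like cells carry 89.6% of WT Cxcr2 UMIs, T-like cells 87.4% of WT Cxcr6 UMIs, and T-like cells go from 10.7% to 39.8% of Ccr9 UMIs.

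Ccr2 was led by classical monocyte-like cells, at 1019 (WT) and 964 CPM (KO), a ratio of 0.946 [0.909 to 0.984] that lay above 1 without haemoglobin genes in the total, at 0.07 on the log2 scale. They held 41.3% (WT) and 39.2% (KO) of its UMIs, and T-like cells 22.6% (WT) and 21.5% (KO). Ccr2 was seen in 58% [55.1 to 60.9] (WT) and 58.1% [54.3 to 61.7] (KO) of thinned classical monocyte-like cells, against 1.99% and 1.14% of B-like cells. Before thinning they were 81.7% and 81% of classical monocyte-like and 3.76% and 1.93% of B-like cells. Macrophage-like cells had the next level in KO and in WT, at 523 (WT) and 837 CPM (KO), a ratio of 1.6 [1.4 to 1.84]; in WT their interval overlapped that of cDC1-like cells. Their other markers moved as well: the Kupffer cell genes Clec4f, Marco and Timd4 were at 361, 367 and 91.8 CPM in WT and 13.3, 2.65 and 1.33 CPM in KO. The 7 markers of large peritoneal macrophages summed to 35.4 CPM in WT, with 4 of 7 at 0, and 751 CPM in KO, with none at 0. The 13 macrophage markers as a whole summed to 8977 and 3177 CPM. The part of these marker differences in the receptor values of this class was not tested. None of its 3 receptors with 20 UMIs was called, where 10.6% of 5969 tested genes were. Without haemoglobin genes in the total Cx3cr1 passed 2-fold there, at 1.09 on the log2 scale.

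Ccr2 was called in none of the 11 units, and beside macrophage-like cells its interval lay above 1 in T-like and pDC-like cells. It was 504 (WT) and 303 CPM (KO) in cDC1-like cells, a ratio of 0.602 [0.54 to 0.671]. NK-ILC1-like cells had 308 (WT) and 196 CPM (KO), a ratio of 0.636 [0.573 to 0.705], and pDC-like cells had 175 (WT) and 227 CPM (KO), a ratio of 1.3 [1.07 to 1.58]. Nonclassical monocyte-like cells had 149 (WT) and 90.5 CPM (KO), a ratio of 0.607 [0.489 to 0.755]. The 8 classical monocyte markers summed to 5586 CPM (WT) and 2224 CPM (KO) in that class, none of them at 0, and their part in its Ccr2 values was not tested. The T-like class had 167 (WT) and 198 CPM (KO), a ratio of 1.18 [1.12 to 1.25], but its clusters, which the libraries fill unequally, were mostly lower or level. Cluster 0 had 337 (WT) and 288 CPM (KO), a ratio of 0.854 [0.776 to 0.94], and cluster 2 196 (WT) and 189.7 CPM (KO), a ratio of 0.968 [0.732 to 1.26]. The CD8 cluster 7 had 63.6 (WT) and 36.5 CPM (KO), a ratio of 0.574 [0.423 to 0.771], and the dividing cluster 11 116 (WT) and 166 CPM (KO), a ratio of 1.43 [1.19 to 1.71]. Among T subsets the regulatory T-like subset (320 WT and 136 KO cells) had 218 (WT) and 65.5 CPM (KO) from 226 and 20 UMIs and was 3.33-fold lower in KO [2.1 to 5.55], the only receptor of the 7 called in it, where 10.4% of 5589 tested genes were called.

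Cx3cr1 was highest in nonclassical monocyte-like cells, the class it is known to mark, at 359 (WT) and 381 CPM (KO), a ratio of 1.06 [0.94 to 1.2]. It was seen in 31.2% [25.5 to 37.4] (WT) and 30.4% [26.8 to 34.1] (KO) of these cells after thinning, against 0.662% and 0.0813% of B-like cells. Without thinning the shares were 61.6% and 54.5% of nonclassical monocyte-like and 1.11% and 0.186% of B-like cells. This class made up 1.65% (WT) and 4.56% (KO) of the cells, and its part of all Cx3cr1 UMIs was 14.6% (WT) and 37.4% (KO). Classical monocyte-like cells had 114 (WT) and 89.6 CPM (KO) and macrophage-like cells 144 (WT) and 264 CPM (KO). In macrophage-like cells the log2 ratio was 0.87 and not called, a result that held under 9 of 14 alternatives. It was highest, at 1.09, without haemoglobin genes in the total. The T-like class had 31 (WT) and 9.21 CPM (KO) and was 3.37-fold lower in KO [2.72 to 4.21]. Within clusters 2 and 11 the difference was smaller. Cluster 11 had 43.8 (WT) and 43.9 CPM (KO), a ratio of 1.0 [0.693 to 1.41], cluster 2 31.7 (WT) and 22.9 CPM (KO), a ratio of 0.722 [0.288 to 1.51], and cluster 0 7 and 15 UMIs. When T-like cells were clustered again, a dividing sub-cluster led by the natural killer genes Klra4, Ncr1 and Klra8 held 153 WT and 8 KO cells. The finer clustering named an NK-ILC1-like cluster led by Ccl3, Ccl4 and Gzma, with 159 WT and 10 KO cells. The part of such cells in the cluster 11 values, here and for other receptors and genes, was not tested. The CD8 T-like subset (576 WT and 395 KO cells) stood above the class as a whole, at 149 (WT) and 35.3 CPM (KO), 4.22-fold lower in KO [2.98 to 6.14]. That subset joins 2 sub-clusters of unlike size in the 2 libraries: sub-cluster 11, which has Cx3cr1 among its leading genes beside Klrg1 and S1pr5, held 275 WT and 77 KO cells, and sub-cluster 7 held 301 and 318. Neutrophil-like cells had a low level, 12.9 (WT) and 30.9 CPM (KO), a ratio of 2.39 [1.76 to 3.21], which was 1.45 [1.02 to 2.05] within cluster 1 and was no longer called with thinned cells, at 0.33 on the log2 scale.

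Cxcr5 was close to equal in the cells that use it. B-like cells had 177 (WT) and 182 CPM (KO), a ratio of 1.03 [0.892 to 1.18]. Over all kept cells it was 8.72 (WT) and 21.7 CPM (KO), a ratio of 2.49 [2.24 to 2.77], and B-like cells made up 4.21% (WT) and 10.3% (KO) of the cells. After thinning it was seen in 14.6% [11.9 to 17.6] (WT) and 16.7% [14.7 to 19] (KO) of B-like cells, against 1.38% and 3.66% of neutrophil-like and 0.0664% and 0.577% of erythroid-like cells. The unthinned shares were 30.7% and 25.7% of B-like, 2.55% and 3.85% of neutrophil-like and 0.199% and 0.673% of erythroid-like cells. Neutrophil-like cells, set as the class that should lack Cxcr5, held the next level, 9.72 (WT) and 32.8 CPM (KO) from 125 and 68 UMIs, a ratio of 3.38 [2.48 to 4.57] that was 1.77 [1.26 to 2.47] within cluster 1. The neutrophil-like class had 2 of its 6 receptors with 20 UMIs called, where 18.9% of 9274 tested genes were: Cxcr5 and Cx3cr1. In B-like cells 2 of 6 were called, where 4.06% of 8967 were; these were Cxcr6, at 6.83 (WT) and 13.7 CPM (KO), and Ccr9, at 2.28 (WT) and 7.01 CPM (KO), from 12 and 41 and from 4 and 21 UMIs, both far under their levels in T-like and pDC-like cells. Both calls ended with thinned cells, where the log2 ratio of Ccr9 was -0.02 and that of Cxcr6, on fewer UMIs, was 2.40 against 0.91 unthinned. With doublets kept that of Cxcr6 was -0.10.

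Cxcr6 was led by T-like cells at 453 (WT) and 321 CPM (KO), 1.41-fold lower in KO [1.36 to 1.47], and NK-ILC1-like cells came second at 167 (WT) and 72.2 CPM (KO), 2.32-fold lower in KO [1.97 to 2.73]. T-like cells held 87.4% (WT) and 71% (KO) of its UMIs. After thinning it was seen in 34.9% [33.6 to 36.3] (WT) and 25.7% [24.4 to 27.1] (KO) of T-like cells and 14.2% [12.2 to 16.5] (WT) and 5.94% [4.55 to 7.59] (KO) of NK-ILC1-like cells, against 0.166% and 1.22% of B-like cells. Before thinning they were 56.4% and 39% of T-like, 25.7% and 10.3% of NK-ILC1-like and 1.67% and 2.17% of B-like cells. Without haemoglobin genes in the total the NK-ILC1-like value was -0.97 on the log2 scale, against -1.20 with them, and was not called. With Cxcr4, Cxcr6 made up the 2 of 5 receptors called in NK-ILC1-like cells, where 10.7% of 9961 tested genes were. Both natural killer and innate lymphoid clusters had less of it in KO: cluster 13 had 381 (WT) and 229 CPM (KO), a ratio of 0.603 [0.507 to 0.713], and cluster 6 had 26.3 (WT) and 7.62 CPM (KO), a ratio of 0.29 [0.151 to 0.519]. Cxcr6 was also called lower at low levels. It was 13.3 (WT) and 4.8 CPM (KO) in cDC1-like cells, 13.8 (WT) and 4.78 CPM (KO) in classical monocyte-like cells and 7.93 (WT) and 3.89 CPM (KO) in erythroid-like cells, which should lack it. All 3 calls were lost with thinned cells, at log2 ratios of -2.42, -0.49 and -0.77. In cDC1-like cells 1 of 5 receptors was called, where 5.68% of 8493 tested genes were, and 1 of 4 in erythroid-like cells, where 23.6% of 2952 were.

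The T-like classes of the 2 libraries are made of different clusters, so the T cell values were also taken cluster by cluster. Cluster 2, of Cd4 cells led by Cd4, Csf1 and Il1rl1, held 3202 WT and 157 KO cells, and cluster 0, of natural killer T cell genes, 598 WT and 3153 KO cells. When T-like cells were clustered again, the innate-like T-like subset held 109 WT and 2374 KO cells, so most WT cells of cluster 0 lay outside it. An unnamed sub-cluster led by Sgip1 and Ffar2 held 466 WT and 4 KO cells. The part of this make-up in the cluster 0 values, here and for other receptors and genes, was not tested. Within cluster 0 Cxcr6 was 727 (WT) and 488 CPM (KO), a ratio of 0.671 [0.627 to 0.718]. In cluster 2 it was 679 (WT) and 268 CPM (KO), 2.53-fold lower in KO [2.04 to 3.19]. In the CD8 cluster 7 it was 191 (WT) and 64.4 CPM (KO), 2.96-fold lower in KO [2.41 to 3.66]. The dividing cluster 11 had 209.6 (WT) and 164 CPM (KO), a ratio of 0.782 [0.653 to 0.931]. The naive cluster 12 had 15 (WT) and 13.1 CPM (KO), a ratio of 0.877 [0.36 to 2.27], a level near that of B-like cells. The regulatory cluster 20, with 386 WT and 80 KO cells and therefore not compared, had 232 (WT) and 40.2 CPM (KO). The largest WT subset, effector CD4 T-like cells, had 1774 WT and 4 KO cells and 758 CPM of Cxcr6 in WT. At the finer clustering, 1 cluster with Cd4, Arnt2 and Or13a27 among its leading genes held 2222 WT and 56 KO cells. A shallower one with the same leading genes held 913 WT and 85 KO cells. The part of this make-up in the cluster 2 values, here and for other receptors and genes, was not tested.

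Of the clusters compared, the CD8 cluster 7 (644 WT and 755 KO cells) had most receptors called: 6 of 7, where 9.03% of 8817 tested genes were called. At the finer clustering a CD8 cluster with Dapl1 and Lef1 among its leading genes held 276 WT and 664 KO cells and one with Gzmk and Gzmb 184 WT and 70 KO cells, so the make-up of CD8 cells differed between the libraries, and its part in these calls was not tested. Cxcr4, Cxcr5 and Ccr9 were higher in KO and Cxcr6, Cx3cr1 and Cxcr2 lower. The calls of Cxcr4, Cxcr6 and Ccr9 held under all 12 alternatives run for this cluster. That of Cx3cr1 held under 8, and was lost, for example, at -0.96 on the log2 scale with TMM scaling. Those of Cxcr2 and Cxcr5 held under 10, and with thinned cells both were lost, Cxcr5 at 0.43 against 1.54 unthinned and Cxcr2 at -1.75 against -1.36. Cxcr5 was 5.83 (WT) and 18.8 CPM (KO) there, from 13 and 35 UMIs. Cx3cr1 was 37.2 (WT) and 17.7 CPM (KO), 2.1-fold lower in KO [1.39 to 3.25]. Cxcr2 was 12.6 (WT) and 4.3 CPM (KO), from 28 and 8 UMIs, close to its B-like level in WT and under it in KO. The CD8 T-like subset of the second clustering had 4 of 6 called, where 11.9% of tested genes were. In the other T clusters fewer were: 1 of 5 in cluster 0, where 5.27% of tested genes were called, and 2 of 6 in cluster 2, where 6.74% were. Cluster 11 had 1 of 6 called, where 6.77% were, and cluster 12 had 1 of 1, where 3.91% were.

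**Figure D3:**
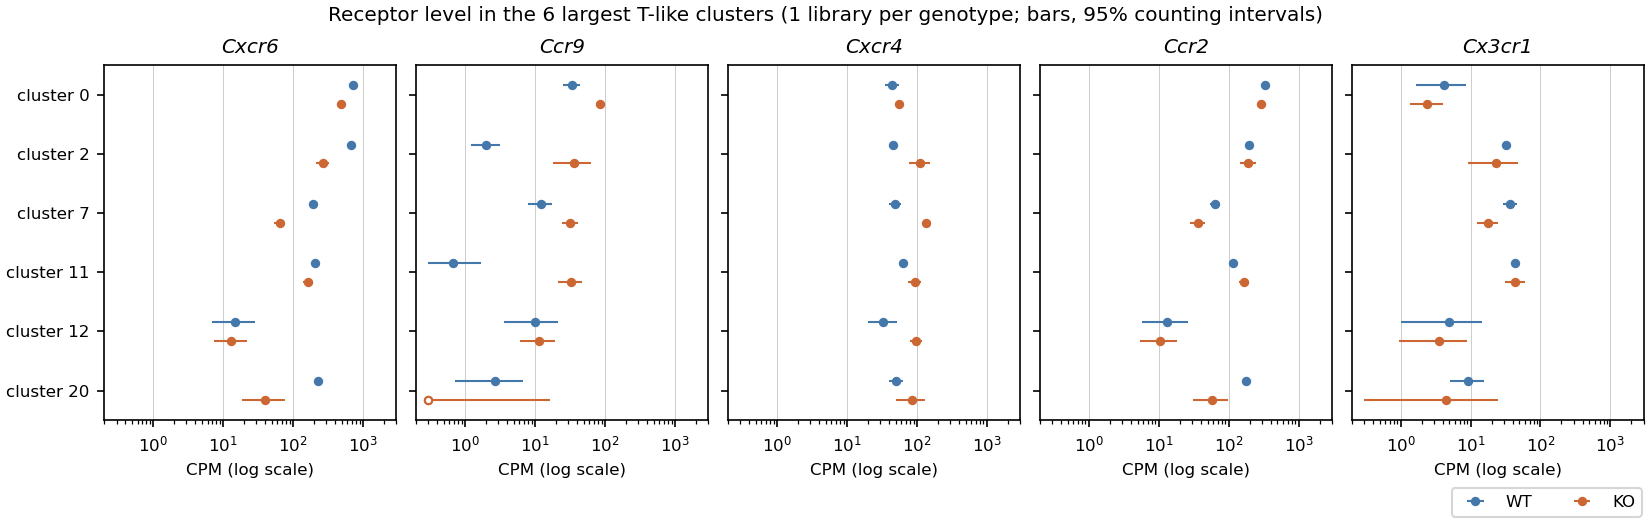
CPM (log scale, horizontal) of Cxcr6, Ccr9, Cxcr4, Ccr2 and Cx3cr1 in the 6 largest T-like clusters (vertical), WT in blue and KO in orange, 1 library each, with 95% Poisson intervals and an open circle at the left edge for 0 UMIs. Cxcr6 lies further left in KO and Cxcr4 further right in KO in all 6 clusters, by amounts that differ between clusters. In some of them the intervals overlap, as for Cxcr6 in cluster 12 and Cxcr4 in cluster 0.

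The largest called ratio of any receptor and class was that of Ccr9 in T-like cells. T-like cells had 5.39 (WT) and 60.1 CPM (KO) from 116 and 639 UMIs, a ratio of 11.1 [9.14 to 13.7]. Ccr9, Cx3cr1 and Cxcr2 were the 3 of 7 receptors called in T-like cells, where 16.6% of 12680 tested genes were. Cxcr2 there, at 15.8 (WT) and 7.8 CPM (KO), lay close to its level in B-like cells and was not called with DESeq2 size factors (-0.91 on the log2 scale). T sub-cluster 2, with the neutrophil genes Camp, Ngp and S100a8 among its leading genes, held 1041 WT and 18 KO cells. The Cxcr2 call held under 11 of the 15 alternatives run for this class. One of the 15 left out that sub-cluster together with sub-clusters 3, 12 and 14, and none left it out alone. Over them its log2 ratio lay between -1.30 and -0.53. In cluster 0 Ccr9 was 33.5 (WT) and 85 CPM (KO), a ratio of 2.54 [1.93 to 3.41], smaller than over the class. In the CD8 cluster 7 it was 12.1 (WT) and 32.2 CPM (KO), a ratio of 2.66 [1.66 to 4.36], and in the dividing cluster 11 0.671 (WT) and 32.3 CPM (KO), from 4 and 28 UMIs. Cluster 2 had 2.02 (WT) and 36 CPM (KO), from 19 and 11 UMIs, and the naive cluster 12 had 9.99 (WT) and 11.4 CPM (KO), a ratio of 1.14 [0.404 to 3.66]. The innate-like T-like subset, marked by Zbtb16 and Il4, had 6.45 (WT) and 83.9 CPM (KO), from 2 and 460 UMIs in 109 WT and 2374 KO cells, a ratio of 13 [3.58 to 108]. Ccr9 was 1 of 4 receptors called in that subset, where 6.29% of tested genes were. Its sub-cluster 1, with Ccr9 among its leading genes, held 20 WT and 1585 KO cells, while 55 WT cells came from sub-cluster 5. After thinning, 0.642% [0.442 to 0.90] (WT) and 5.75% [5.05 to 6.51] (KO) of T-like cells had a Ccr9 UMI, against 0.234% and 0.244% of neutrophil-like cells. Without thinning the shares were 1.51% and 8.96% of T-like and 0.371% and 0.577% of neutrophil-like cells.

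Elsewhere Ccr9 followed dendritic cells. Plasmacytoid dendritic (pDC-like) cells had 669.9 (WT) and 461 CPM (KO), a ratio of 0.688 [0.614 to 0.772], and held 60.3% (WT) and 34.7% (KO) of its UMIs. The share of thinned pDC-like cells with a Ccr9 UMI was 38.5% [32 to 45.3] (WT) and 35.5% [30.01 to 41.3] (KO). The unthinned shares were 66.3% and 59.9%. Cross-presenting dendritic (cDC1-like) cells had 101 (WT) and 90.5 CPM (KO), a ratio of 0.893 [0.718 to 1.11], and cluster 14 had 20.8 (WT) and 6.87 CPM (KO) from 38 and 12 UMIs, 3.03-fold lower in KO [1.55 to 6.37], a call that thinning ended. The 8 migratory dendritic cell markers summed to 876 CPM (WT) and 359.8 CPM (KO) in cluster 14 and the 7 cDC2 markers to 1025 and 1057 CPM. The finer clustering set apart a migratory dendritic cluster of 81 WT and 26 KO cells. The part of these markers in the values of cluster 14 was not tested. None of 5 receptors was called in pDC-like cells, where 6.87% of 7404 tested genes were, and 1 of 6 in cluster 14, where 8.01% of 8640 were.

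**Figure D4:**
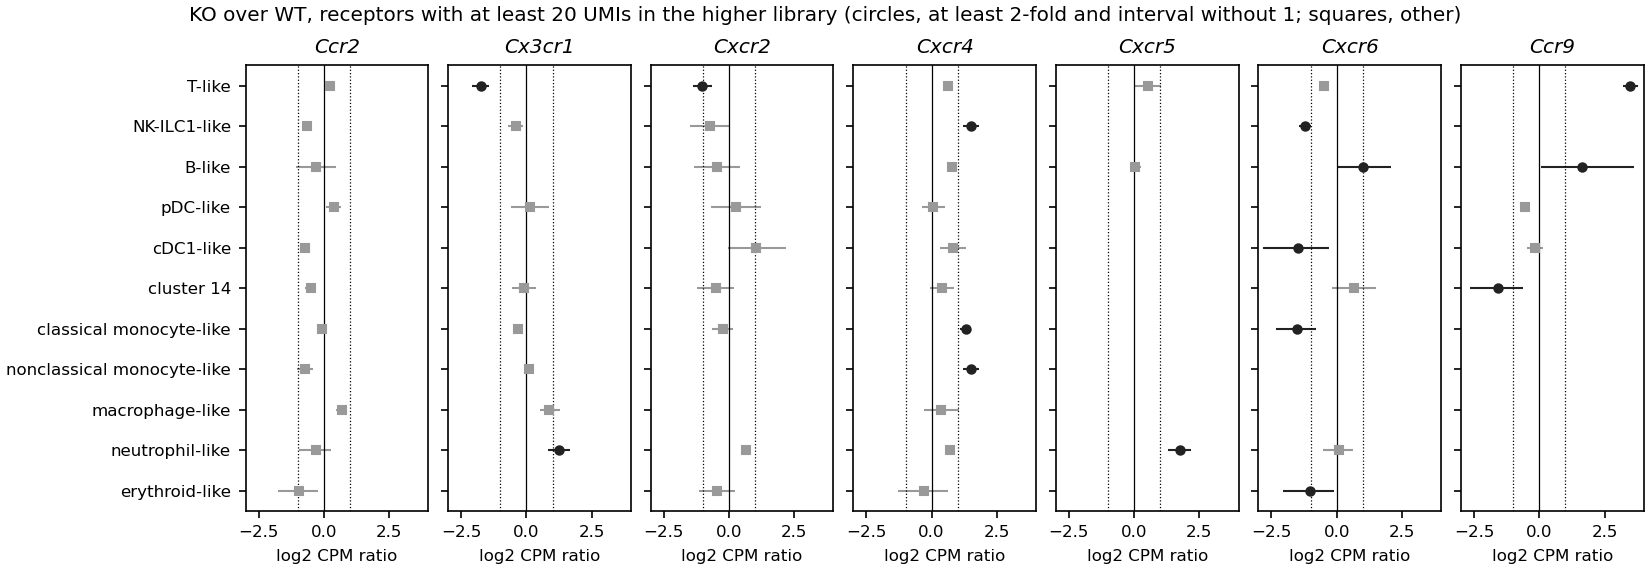
Log2 ratio of KO to WT CPM (horizontal) for each receptor and class (vertical) with at least 20 UMIs in the higher library, with the 95% counting interval; circles are called, squares are not, and dotted lines mark 2-fold. Of 77 receptor and class pairs the 55 with 20 UMIs are shown and the other 22 could not be called; 8 are called higher and 7 lower in KO; the only circles of Cxcr4 lie to the right, and 4 of the 5 of Cxcr6 lie to the left.

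Co-detection in single thinned cells showed how the receptors share cells. Ccr2 and Cx3cr1 were seen together in 5.34% of WT and 3.68% of KO classical monocyte-like cells, close to the products of the 2 shares, 5.94% and 3.87%. Cxcr2 and Cxcr4 in neutrophil-like cells were also near their product, at 9.27% against 9.24% in WT and 15.7% against 15.1% in KO. Cxcr6 and Cx3cr1 in T-like cells lay under theirs, at 0.389% [0.238 to 0.60] against 0.809% in WT, and 3 of 4018 cells against 0.192% in KO, where the interval takes in the product. In WT 1.11% of T-like cells with a Cxcr6 UMI had one of Cx3cr1, against 2.96% of the others. In NK-ILC1-like cells the pair was seen in 6 of 1082 WT and 0 of 994 KO cells. Cxcr6 and Cxcr4 in T-like cells also lay under their product in WT, at 1.36% [1.06 to 1.72] against 1.79%. In KO they were at 1.67% [1.29 to 2.11] against 2.01%, where the interval takes in the product.

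By position, 5 of the 7 genes lie on mouse chromosome 9 and 2, Cxcr2 and Cxcr4, on chromosome 1. In the order of protein-coding genes of the RefSeq GRCm38.p6 annotation, another build than that of the files, Ccr9 and Cxcr6 are separated by Fyco1 alone, and Cxcr6 is followed by Xcr1, Ccr1, Ccr1l1, Ccr3 and Ccr2. In T-like cells Ccr9 was higher in KO and Cxcr6 was 1.41-fold lower in KO [1.36 to 1.47]. Within cluster 0 the KO to WT ratio was 2.54 [1.93 to 3.41] for Ccr9, 0.671 [0.627 to 0.718] for Cxcr6 and 0.854 [0.776 to 0.94] for Ccr2.

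The genes whose level followed each receptor most closely across the 22 class-by-library values (11 units, each in both libraries, so the points share their libraries) were as follows. Cxcr2 went with Hdc (Pearson r = 0.977), Arg2 (0.966) and Mirt2 (0.959), and Cxcr6 with Cd3g (0.971), Tesc (0.967) and Ubash3a (0.965). Cxcr5 went with Cacna1i (0.899), Pik3c2b (0.886) and Cr2 (0.872), and Ccr9 with Fads2 (0.889), Lefty1 (0.864) and Siglech (0.854). Cxcr4 went with Fry (0.936) and Tsc22d3 (0.928), a glucocorticoid-induced gene. Cx3cr1 went with Metrnl (0.89), Fcer1g (0.877) and Tnfrsf1b (0.87), and Ccr2 with Vwa5a (0.931), Cox7b (0.906) and Lgals3bp (0.904). These are descriptions over few classes.

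Of the 14 ligands, 6 had at least 20 UMIs in all kept cells, 4 of them 2-fold lower in KO and none higher, where 15.9% of all tested genes were called (842 higher and 1612 lower), with a median log2 ratio of -0.79 against -0.07 over all tested genes. In classical monocyte-like cells 4 of the 5 ligands with 20 UMIs were lower, where 9.15% of tested genes were called (186 higher and 749 lower). The classical monocyte-like clusters of the finer clustering were filled unequally: one led by Cfb and Cxcl9 held 709 WT and 84 KO cells and one led by Vcan 590 WT and 710 KO cells, and their part in the ligand values was not tested. Cxcl16, the ligand of Cxcr6, was 59.6 (WT) and 8.56 CPM (KO), 6.97-fold lower in KO [4.9 to 10.2]. There the Ccr2 ligand Ccl2 was 11.2 (WT) and 1.76 CPM (KO), 6.35-fold lower in KO [2.93 to 16.3], and the Ccr2 ligand Ccl12 had 34 WT UMIs and 0 KO UMIs, a 0 that permits 0.755 CPM. The Cxcr2 ligand Cxcl2 was 8.54 (WT) and 1.01 CPM (KO) there. In cluster 14, with the migratory dendritic markers given above, Cxcl16 was 87.7 (WT) and 25.8 CPM (KO), 3.4-fold lower in KO [2.43 to 4.85], and in cDC1-like cells it was 47.6 (WT) and 49.8 CPM (KO). Cxcl2 in macrophage-like cells ran the other way, with 0 WT UMIs, a 0 that permits 6.26 CPM, and 106 KO UMIs or 70.3 CPM. The Cxcr5 ligand Cxcl13 was 85.5 (WT) and 1.33 CPM (KO) there, beside the marker differences given above. The Ccr9 ligand Ccl25 was 28 (WT) and 27 CPM (KO) in T-like and 30.8 (WT) and 24.7 CPM (KO) in B-like cells. It lay between 5.31 and 33.7 CPM in 10 of the 11 units in both libraries, with 3 UMIs in each library in erythroid-like cells.

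Of the other 16 chemokine receptors, 13 had 20 UMIs in all kept cells, with 2 higher and 3 lower in KO, beside the 15.9% of all genes. In T-like cells the lymph-node receptor Ccr7 was 21.4 (WT) and 81.8 CPM (KO), a ratio of 3.82 [3.41 to 4.29]. In that class the 7 naive T markers, Ccr7 not among them, summed to 1428 CPM (WT) and 3179.9 CPM (KO) and the 7 effector CD4 markers to 1449.99 and 487 CPM, and their part in the T-like values of this paragraph was not tested. Within the naive cluster 12 Ccr7 was 323 (WT) and 343 CPM (KO), a ratio of 1.06 [0.893 to 1.27], and within cluster 7 it was 86.5 (WT) and 229 CPM (KO), a ratio of 2.64 [2.23 to 3.15]. In classical monocyte-like cells the atypical receptor Ccrl2 was 34 (WT) and 6.04 CPM (KO), 5.63-fold lower in KO [3.69 to 8.98]. The part of the unequal finer clusters of this class, given with the ligands, in its values here was not tested. Ccr1 in neutrophil-like cells was 240.3 (WT) and 371 CPM (KO), a ratio of 1.54 [1.42 to 1.67] close to that of Cxcr2 over the whole class. Among the 14 signalling and desensitisation genes, 0 were higher and 2 lower in all kept cells, a share near the 15.9% of all genes (median log2 ratio -0.20). Rgs1, which dampens chemokine receptor signals, was 231 (WT) and 59.98 CPM (KO) in T-like cells, 3.86-fold lower in KO [3.55 to 4.19]. Within clusters 0, 2 and 7 it was 3.22-fold lower in KO [2.8 to 3.69], 3.16-fold lower in KO [2.22 to 4.66] and 2.89-fold lower in KO [2.11 to 4.01]. It was 224 (WT) and 66.8 CPM (KO) in NK-ILC1-like cells, 3.36-fold lower in KO [2.85 to 3.97], and 18 (WT) and 1.01 CPM (KO) in classical monocyte-like cells. Of the 13 other trafficking genes 1 was higher and 0 lower in all kept cells, a smaller share than the 15.9% of all genes: S1pr1, the receptor for leaving tissue, was 36.3 (WT) and 85.9 CPM (KO) in T-like cells, a ratio of 2.37 [2.15 to 2.61]. Its ratio was 1.04 [0.873 to 1.25] in the naive cluster 12, 0.879 [0.451 to 1.84] in cluster 0, 1.53 [1.05 to 2.18] in cluster 11, 2.8 [2.33 to 3.38] in cluster 7 and 3.84 [2.43 to 5.84] in cluster 2. In NK-ILC1-like cells Cd69, which restrains S1pr1, was 56.2 (WT) and 17.7 CPM (KO), 3.17-fold lower in KO [2.31 to 4.44], and S1pr5 24.8 (WT) and 62.1 CPM (KO), a ratio of 2.5 [1.96 to 3.21]. The NK-ILC1-like class joins cluster 6, with 726 WT and 911 KO cells, and cluster 13, with 571 WT and 328 KO cells. The part of this make-up in the Rgs1, Cd69 and S1pr5 values of the class was not tested. In neutrophil-like cells Selplg, which encodes the selectin ligand PSGL-1, was 462 (WT) and 1061 CPM (KO), a ratio of 2.3 [2.19 to 2.41]. The mature cluster 1 held 2220 of 4308 WT and 1344 of 1559 KO cells of this class. The part of that make-up in the Selplg and Ccr1 values was not tested.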

How the data were processed

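The 2 libraries, 1 per genotype, were made with the 10x Genomics 3' chemistry, and the authors deposited raw UMI counts per gene and barcode. Cell Ranger 8.0.1 made the matrices, per the file headers, but version 6.0.1 is given, with Seurat 4.3.0 and mm39, per the submitters' processing notes. Barcodes with at least 200 genes and at most 20% mitochondrial UMIs were kept, and doublets called by Scrublet (scanpy 1.11.5), 3087 in WT and 2056 in KO, were also left out, although the choice of members names only the first 2 filters. Cells were clustered by Leiden (28 clusters) without chemokine and receptor genes and named where at least 3 markers of a class were 2-fold above the other cells and no other class had more markers among the cluster's 10 leading genes. The naming rule took 3 versions after the clusters were seen, and the naming of clusters 0, 2 and 11 depends on it. Haemoglobin-high clusters 9, 18, 19 and 24 stayed unnamed and were not compared. T-like cells were clustered again into 16 sub-clusters. The members and lists were chosen with earlier results of these data known.

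Counts were summed per library and class and divided by that sum's total to give CPM, with exact Poisson intervals, and ratios with exact conditional binomial intervals; shares have Clopper-Pearson intervals. Log2 ratios were taken of CPM + 1. Intervals cover counting error only, and a count of 0 was taken to permit 3 counts. Thinning to 1000 UMIs left out 1903 WT and 2638 KO cells. The 52 genes that share a symbol with another were kept apart by identifier. The genes named were to come from the 7 members, the 4 other lists and, for each member, the 3 genes with the highest Pearson r of log2(CPM + 1) over the class-by-library values; markers and leading genes of clusters are named besides, and some results are not reported here. On simulated Poisson counts, 200 of 200 genes changed 4-fold, chosen among well-counted genes, were recovered in each of 4 classes. Unchanged genes called numbered 60 in T-like, 42 in B-like, 63 in neutrophil-like and 38 in classical monocyte-like cells. The genes tested there were 12502, 8882, 8910 and 10068 in all. Recovery of 2-fold changes, the size used for calls, was not simulated. Alternatives were edgeR 4.0.16 and DESeq2 1.42.0 scaling, pseudocounts, UMI minimums, cell filters, doublets, haemoglobin, thinning, clustering resolution and the mean over cells.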

Additional observations from a re-analysis of the deposited data

Results flagged for a closer look

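Calls of at least 2-fold were opposite in direction between classes for 3 receptors, and none of these differences between classes was tested, since each library is 1 sample. Cx3cr1 was called higher in KO in neutrophil-like cells, at a log2 ratio of 1.20, and lower in T-like cells, at -1.65, where the dividing cluster 11 had 43.8 (WT) and 43.9 CPM (KO). Cxcr6 was called higher in B-like cells, at 0.91, and lower in NK-ILC1-like (-1.20), cDC1-like (-1.30), classical monocyte-like (-1.36) and erythroid-like cells (-0.87). Ccr9 was called higher in B-like cells, at 1.29, and in T-like cells, at 3.26, and lower in cluster 14, at -1.47.

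Receptor UMIs also lay in 4 clusters that were left out of the comparisons for their haemoglobin content and that were mostly KO cells. Cluster 9, led by Il4 and Zbtb16, had 241 CPM of Cxcr6 in KO. Cluster 18, led by B cell genes, had 145 CPM of Cxcr4 in KO, cluster 19, led by neutrophil genes, had 632 CPM of Cxcr2 in KO, and cluster 24, led by Lef1, had 71.4 CPM of Cxcr4 in KO.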

How the results depend on the processing

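Of the 15 called receptor and class pairs, 12 kept their sign and 6 kept their call under every alternative run, of which 2 were chosen after seeing the data. Ccr2 in classical monocyte-like cells, at a log2 ratio of -0.08, was 0.0156 with TMM, 0.0163 with DESeq2 scaling, 0.0673 without haemoglobin genes, 0.0764 without cells over 10% haemoglobin and 0.0816 thinned. Ccr9 in pDC-like cells, at -0.54, was -0.36 with TMM, -0.35 with DESeq2 scaling, -0.35 without haemoglobin genes, -0.37 with doublets and -0.36 thinned. Cxcr2 in neutrophil-like cells, at 0.64, was 0.74 without haemoglobin genes, 0.73 without haemoglobin-high cells, 0.26 thinned, 0.36 as a mean over cells and 0.37 with cluster 19 added. Cxcr6 in T-like cells, at -0.50, was -0.60 thinned, -0.58 at resolution 2, -0.57 as a mean over cells and -0.68 with clusters 9 and 24 added. Cxcr4 in B-like cells, at 0.79, was 0.53 with cluster 18 added. Of the 8 higher and 7 lower pairs, 4 lower were left with a minimum of 50 UMIs, which also ended the higher calls of Cxcr6 and Ccr9 in B-like cells. There were 5 higher and 3 lower thinned, and 5 higher with the haemoglobin-high clusters added. Cxcr6 in B-like cells turned to -0.10 with doublets kept and Ccr9 there to -0.0216 thinned, and Cxcr6 in erythroid-like cells stood at 0 with the stricter cell filter. The causes were not tested. TMM moved the median of all genes by 0.16 in NK-ILC1-like, 0.17 in macrophage-like, 0.18 in pDC-like, 0.11 in cluster 14 and -0.18 in erythroid-like cells. No paired analysis was possible because each genotype has 1 library, which also leaves no replicate to leave out.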
